A study of Mus musculus with 24 samples.

Results

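The transcripts of 8 genes, of 37074 gene names on the array, were followed in mouse liver. They comprised 6 genes known to respond to glucocorticoids or to set their supply (Fkbp5, Tsc22d3, Sgk1, Zbtb16, Dusp1 and Hsd11b1) and the metallothioneins Mt1 and Mt2. Members were taken as every probe whose gene name in the scanner output equalled one of these symbols, which gave 15 probes. Of these, 12 passed the filter on dim probes and at least 1 of them belonged to each gene. The other 3, additional probes of Fkbp5, Tsc22d3 and Sgk1, were well above background on 1, 3 and 5 arrays and were not tested.

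Each array held liver RNA of 1 male C57Bl6J mouse, and the mice descended from 2 lineages in the third generation. The control lineage had been bred on a growing diet supplemented with high-oleic sunflower oil, and the omega 3 lineage on the same diet with an oil from fish in which eicosapentaenoic acid (EPA) predominates. Mice of the control lineage on a low-fat diet formed the reference group (n = 9), mice of the control lineage on an obesogenic diet, with much fat and sucrose, the HFoleic group (n = 8), and mice of the omega 3 lineage on that obesogenic diet the HFepa group (n = 7). No group of the omega 3 lineage on the low-fat diet was among the samples, so HFepa and reference differed in both diet and lineage. All mice had been killed under isoflurane anaesthesia while fasting, and neither the hour of collection nor corticosterone is given in the sources used here. Ages are not given in the labels.

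Glucocorticoids, mainly corticosterone in the mouse, enter hepatocytes and bind the glucocorticoid receptor, which is held ready by Hsp90 and its co-chaperones and then binds DNA at glucocorticoid response elements. In the fasting liver the receptor is known for raising gluconeogenic and amino acid catabolic enzymes, together with inhibitors of its own signalling. Metallothioneins are small cysteine-rich proteins that bind zinc and copper, and their genes respond to metals through the zinc sensor Mtf1, to glucocorticoids and to interleukin-6.

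Values are quantile-normalised log2 signals, on which a difference of 1 is a doubling, and each gene was read from its brightest tested probe. Each of the 3 comparisons was a limma fit over 30003 probes with Benjamini-Hochberg adjustment, and a gene was called at an adjusted p under 0.05. The hepatocyte markers (5 measured of 6) averaged between 15.92 and 16.25 in the 24 livers. In HFoleic against reference, where 7.23% of all tested probes were called, 3 single marker genes were called. These were Cps1 (-0.89, adjusted p = 0.00166 by limma), 1 of 5 measured hepatocyte genes, and Lrat (0.56, adjusted p = 0.0015), 1 of 4 measured stellate cell genes. The third was Sox9 (-0.65, adjusted p = 0.0279), 1 of 4 measured bile duct genes, and its second tested probe gave -0.19 (adjusted p = 0.415). No marker of the other cell types was called, and the part of these 3 in the HFoleic differences was not tested. Reference replicate 5 stood apart. Its bile duct markers (4 measured of 5) averaged 9.36, against 7.30 to 8.04 in the other 8 reference mice. Spp1 at 13.26, Sox9 at 9.23 and Krt19 at 8.06 were each above all other 23 mice, whereas Krt7 at 6.91 was within their range. Among stellate cell markers Dcn at 15.43, Colec11 at 12.40 and Reln at 10.90 were above all others, and Lrat at 7.34 was not. The lymphocyte gene Ms4a1 and the hepatocyte gene Cps1 were also above all others. Ttr, Clec4g, Alas2, Amy2a5 and Ctrb1, markers of other cell types or of hepatocytes, were below all others. The differences of Sgk1, Hsd11b1, Mt1 and Mt2 from reference are given with and without it. The 3 marker calls above were made with it included. RNA per cell and numbers of cells cannot be told apart in whole liver.

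Of the 8 genes, Fkbp5 alone was called in HFoleic against reference, where 7.23% of all tested probes were called. An unadjusted p under 0.05 by limma was reached there by 6 of the 8 genes and by 6332 of all 30003 probes. None was called in HFepa against reference (0.393% of probes called), where 5 of the 8 genes and 4040 of 30003 probes had an unadjusted p under 0.05. None was called in HFepa against HFoleic either (0% of probes called), where 2910 probes and, among the 8 genes, Fkbp5 had an unadjusted p under 0.05. Fitted differences from reference were negative in both obesogenic groups for Sgk1, Zbtb16, Mt1 and Mt2 and positive for Hsd11b1 and Tsc22d3. These 2 comparisons share the reference mice, so their likeness is no independent support.

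**Figure D1:**
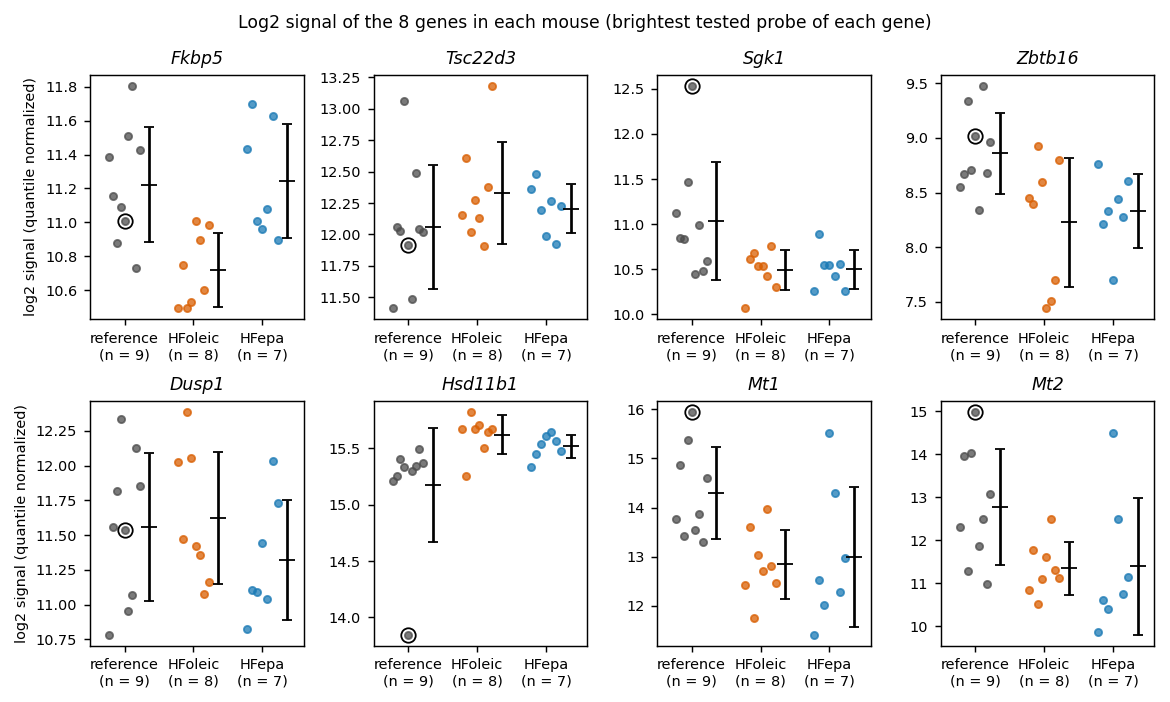
Log2 signal (y axis) of each of the 8 genes in every mouse by group (x axis), read from the brightest tested probe, with the group mean and SD beside the points and a ring around reference replicate 5. Fkbp5 was lower in HFoleic than in both other groups on average, Mt1 and Mt2 were spread widest, and the ringed mouse was the highest for Sgk1, Mt1 and Mt2 and the lowest for Hsd11b1.

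Fkbp5 encodes a co-chaperone of Hsp90 that lowers the affinity of the glucocorticoid receptor for its ligand, and it is among the genes most widely used to read receptor activity. Its log2 signal ran from 10.73 to 11.81 with a median of 11.16 in reference, from 10.49 to 11.01 with a median of 10.68 in HFoleic, and from 10.89 to 11.70 with a median of 11.08 in HFepa. Every HFoleic mouse lay below the reference median and 4 of 8 lay below all reference mice, whereas HFepa lay within the range of reference. Fkbp5 was 1.42-fold lower in HFoleic than in reference (log2 fold change -0.50 ± 0.14 SE, adjusted p = 0.0280 by limma). In HFepa it differed from reference by 0.021 ± 0.15 (95% interval -0.28 to 0.32, adjusted p = 0.976).

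Between the lineages on the obesogenic diet, Fkbp5 was 1.44-fold higher in HFepa than in HFoleic (log2 difference 0.52 ± 0.15 SE, 95% interval 0.22 to 0.83). All 7 HFepa mice lay above the HFoleic median and 5 of 7 lay above all HFoleic mice. The unadjusted p by limma was 0.00179 and the difference did not pass adjustment over all probes (adjusted p = 0.231). Each breeding diet had a single lineage, so these p values weigh the difference against the spread between mice, not between separately bred lineages. A second Fkbp5 probe, some distance from the first on the same chromosome, gave -0.54 in HFoleic against reference (adjusted p = 0.105) and 0.73 in HFepa against HFoleic (adjusted p = 0.258, 6 HFepa arrays with a value). Both probes therefore had the same signs in these comparisons, with r = 0.64 between them over 23 arrays.

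The Fkbp5 call in HFoleic lay near the threshold. It was lost without any 1 of reference replicates 1, 6 and 7 or HFoleic replicates 1, 3, 4 and 7, with adjusted p values of 0.0519 to 0.0590, and the log2 difference then ran from -0.49 to -0.43. It was also lost without the filter on dim probes (adjusted p = 0.0566) and with a clock score as a covariate (log2 fold change -0.40, adjusted p = 0.182). This score, the mean of Per-phase genes minus that of Bmal1-phase genes in units of SD, was -0.99 ± 1.05 (SD) in reference, 0.89 ± 1.36 in HFoleic and 0.25 ± 2.24 in HFepa, so it moved with the groups and its part in the Fkbp5 difference was not tested.

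Within the 3 slides, which each held all 3 groups, Fkbp5 was lower in HFoleic than in reference by 0.74, 0.45 and 0.22 on the log2 scale. The difference of HFepa from HFoleic within the slides was 0.74, 0.41 and 0.25. The sign was thus the same on each slide, with the smallest difference on the third. With slide as a block the HFoleic call was kept (adjusted p = 0.0142).

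**Figure D2:**
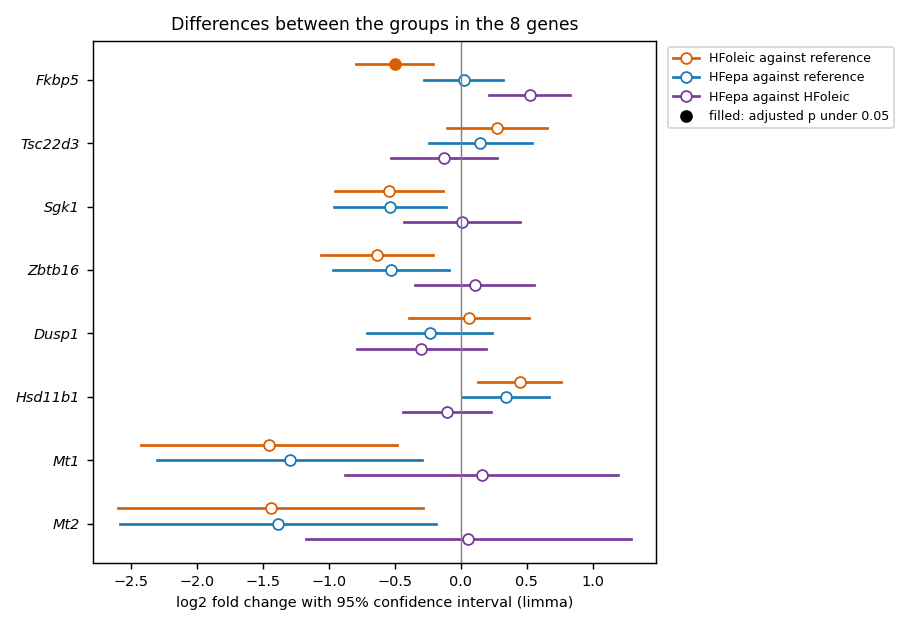
Log2 fold change (x axis) of each of the 8 genes in the 3 comparisons, with 95% confidence intervals from limma and filled points for an adjusted p under 0.05. The point for Fkbp5 in HFoleic against reference is the single filled one, and the intervals of Mt1 and Mt2 are the widest.

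Tsc22d3, also called Gilz, is an induced leucine zipper protein that carries anti-inflammatory effects of glucocorticoids. Its log2 signal ran from 11.41 to 13.06 in reference (median 12.03), from 11.91 to 13.18 in HFoleic (median 12.22) and from 11.93 to 12.48 in HFepa (median 12.22). The groups overlapped almost wholly, and the difference from reference was 0.27 ± 0.18 (SE) in HFoleic (95% interval -0.10 to 0.65, adjusted p = 0.420 by limma) and 0.15 ± 0.19 in HFepa (adjusted p = 0.807). Its sign in HFoleic thus differed from that of Fkbp5. The second tested probe of Tsc22d3 followed the first across the 24 arrays (r = 0.94) and gave 0.18 in HFoleic against reference. Within slides the HFoleic difference was 0.10, 1.02 and -0.19, so its size came mainly from 1 slide.

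Sgk1 encodes a serine/threonine kinase of the insulin and mineralocorticoid signalling network. It ran from 10.45 to 12.53 in reference (median 10.85), from 10.07 to 10.76 in HFoleic (median 10.53) and from 10.26 to 10.89 in HFepa (median 10.55). Reference replicate 5 was the highest mouse, and the next reference mouse was at 11.47. The log2 difference from reference was -0.55 ± 0.20 (SE) in HFoleic (adjusted p = 0.0989 by limma) and -0.54 ± 0.21 in HFepa (adjusted p = 0.238), with all 8 HFoleic mice and 6 of 7 HFepa mice below the reference median. Without reference replicate 5 the values were -0.36 (adjusted p = 0.0925) and -0.35 (adjusted p = 0.265), so the fitted sizes dropped by over 1.5 times while the adjusted p moved little. HFepa and HFoleic differed by 0.010 (95% interval -0.43 to 0.45).

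Zbtb16 encodes a zinc finger repressor (Plzf) that glucocorticoids and progesterone induce in many cell types. It ran from 8.34 to 9.48 in reference (median 8.70), from 7.44 to 8.93 in HFoleic (median 8.43) and from 7.70 to 8.76 in HFepa (median 8.33). HFoleic replicates 5, 6 and 7, at 7.44, 7.50 and 7.70, were below all reference mice, the other 5 lay inside the reference range, and 4 of 7 HFepa mice were below all reference mice. The log2 difference from reference was -0.63 ± 0.21 (SE) in HFoleic (adjusted p = 0.0608 by limma) and -0.53 ± 0.21 in HFepa (adjusted p = 0.264). Zbtb16 passed the threshold in HFoleic when HFoleic replicate 3 (adjusted p = 0.0310), HFoleic replicate 8 (0.0442) or reference replicate 6 (0.0435) was left out. With the clock score as a covariate the difference was smaller, at -0.39 (adjusted p = 0.374). A dimmer second probe, whose 60 bases span 52017 bases of mm9 by its coordinates, gave -0.15 and -0.17 (adjusted p = 0.420 and 0.539).

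Dusp1 encodes a phosphatase that switches off p38 and Jnk kinases and is an early target of both glucocorticoids and stress. Its log2 signal ran from 10.78 to 12.33 in reference (median 11.56), from 11.08 to 12.39 in HFoleic (median 11.45) and from 10.82 to 12.03 in HFepa (median 11.10). The groups overlapped. The difference from reference was 0.062 ± 0.22 (SE) in HFoleic (95% interval -0.39 to 0.52, adjusted p = 0.914 by limma) and -0.24 ± 0.23 in HFepa (adjusted p = 0.726), so a change of up to about 1.43-fold upward in HFoleic lay within the interval.

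Hsd11b1 encodes 11beta-hydroxysteroid dehydrogenase type 1, the liver enzyme that regenerates active corticosterone from its inert 11-keto form. It ran from 13.85 to 15.49 in reference (median 15.34), from 15.25 to 15.82 in HFoleic (median 15.67) and from 15.33 to 15.65 in HFepa (median 15.54). Of the HFoleic mice, 7 of 8 were above every reference mouse, as were 4 of 7 HFepa mice, and the lowest reference value belonged to replicate 5, far below the next at 15.21. The log2 difference from reference was 0.45 ± 0.15 (SE) in HFoleic (adjusted p = 0.0774 by limma) and 0.34 ± 0.16 in HFepa (adjusted p = 0.343). Without reference replicate 5 the HFoleic difference was smaller, at 0.28, but passed the test (adjusted p = 0.0123), and the HFepa difference was 0.18 (adjusted p = 0.280). It also passed without reference replicate 8 (0.49, adjusted p = 0.0488). HFoleic was above reference on each slide, by 0.77, 0.40 and 0.20, the first being the slide of reference replicate 5.

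Mt1 and Mt2, neighbours on chromosome 8, had the largest fitted differences from reference of the 8 genes, in HFoleic and in HFepa. Probe coordinates were those of the mouse build mm9, where the brightest Mt1 probe lies at chr8:96704165-96704224 and the Mt2 probe at chr8:96697371-96697430, both on the plus strand. The last 30 of the 60 bases of each probe are shown because the coding parts of the pair are much alike, and the capitals mark the AATAAA polyadenylation signal.
Mt1 probe: gtacgtgaatAATAAAagcctgtttgagtc
Mt2 probe: ctcgttctccacaactttttctataaagca
The longest run of bases that these probes share is 7 of 60.

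Mt1 ran from 13.29 to 15.95 in reference (median 13.86), from 11.75 to 13.97 in HFoleic (median 12.76) and from 11.41 to 15.51 in HFepa (median 12.51). Apart from replicates 2 and 6, the HFoleic mice lay below every reference mouse, and in HFepa 5 of 7 did, with replicates 4 and 5 at 15.51 and 14.30. Mt1 was 2.74-fold lower in HFoleic than in reference (log2 fold change -1.46 ± 0.47 SE, 95% interval -2.43 to -0.49, adjusted p = 0.0596 by limma) and 2.46-fold lower in HFepa (log2 fold change -1.30 ± 0.49, adjusted p = 0.225), and neither passed the test. The call in HFoleic depended on the fit. Mt1 passed without any 1 of HFepa replicates 4 (adjusted p = 0.0239) and 1 (0.0492), HFoleic replicate 6 (0.0432) and reference replicate 8 (0.0362). It also passed with only HFoleic and reference in the fit (0.0241) and by the methods' t-test (0.0485). With the clock score as a covariate it passed as well (log2 fold change -2.07, adjusted p = 0.0212). The highest clock scores were those of HFepa replicate 4 (4.19) and HFoleic replicate 6 (2.94), the highest mice of their groups for Mt1 and Mt2. Their part in the fits with the clock score was not tested.

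Mt2 ran from 10.99 to 14.99 in reference (median 12.50), from 10.51 to 12.49 in HFoleic (median 11.21) and from 9.87 to 14.50 in HFepa (median 10.76). Every HFoleic mouse lay below the reference median, though the ranges overlapped. The log2 difference from reference was -1.44 ± 0.56 (SE) in HFoleic (adjusted p = 0.127 by limma) and -1.38 ± 0.58 in HFepa (adjusted p = 0.287). With the clock score as a covariate Mt2 gave -2.13 in HFoleic (adjusted p = 0.0462). Without HFepa replicate 4 the HFepa differences from reference were -1.72 for Mt1 (adjusted p = 0.0819) and -1.90 for Mt2 (adjusted p = 0.0990), and without reference replicate 5 they were -1.09 and -1.11. The HFoleic differences without reference replicate 5 were -1.25 for Mt1 and -1.16 for Mt2, and neither passed the test. These were the smallest HFoleic differences of the 24 fits that left out 1 mouse. On the third slide, which held HFepa replicates 4 and 7, HFepa was above reference by 0.21 for Mt1 and 0.72 for Mt2. The differences were -2.75 and -3.24 on the first slide and -1.23 and -1.43 on the second.

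Between the lineages the metallothioneins were not resolved: HFepa minus HFoleic was 0.16 for Mt1 (95% interval -0.87 to 1.19) and 0.056 for Mt2 (95% interval -1.18 to 1.29). The intervals reach more than a doubling upward for both genes, and more than a halving downward for Mt2. Between the 2 rows of the slides the sign differed, at -1.13 and 1.17 for Mt1 and -1.10 and 0.95 for Mt2. A second Mt1 probe, which lay upstream of the first in mm9 and was dim at a reference median of 6.11, gave -0.13 in HFoleic and -0.20 in HFepa against reference (adjusted p = 0.895 and 0.883). It followed the first probe with r = 0.72 over the 24 arrays.

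**Figure D3:**
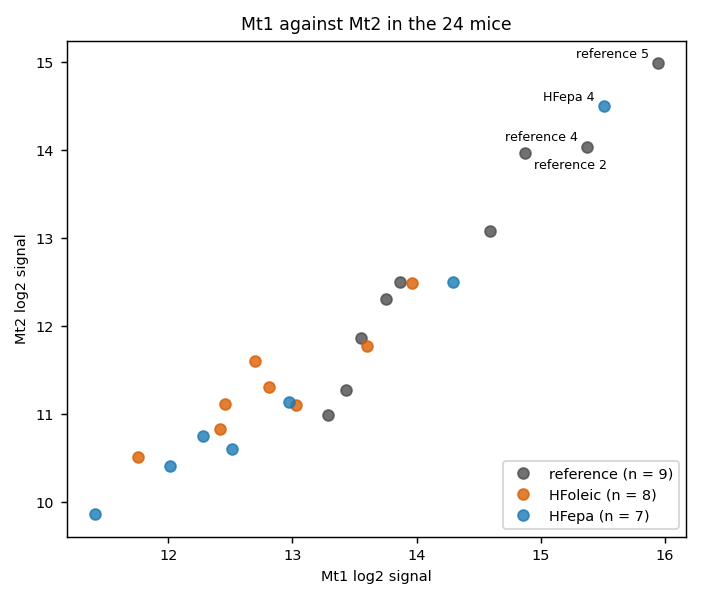
Log2 signal of Mt1 (x axis) and Mt2 (y axis) in each of the 24 mice, coloured by group. The points fall along 1 line (r = 0.97), with reference replicates 2, 4 and 5 and HFepa replicate 4 at the upper end.

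Mt1 and Mt2 rose and fell together from mouse to mouse (r = 0.97 over 24 arrays, and 0.96 for deviations from the group means). Over 19291 genes the gene name most similar to Mt2, just ahead of Mt1, was Pip5k1a, a lipid kinase (r = 0.98), read from 1 of its 3 tested probes. The other 2 Pip5k1a probes gave r = -0.28 and r = -0.21 with Mt2. The Pip5k1a probe that followed the metallothioneins ran from 9.22 to 12.14 in reference, from 8.86 to 10.30 in HFoleic and from 9.11 to 11.91 in HFepa, and its highest mice in each group, reference replicate 5, HFoleic replicate 6 and HFepa replicate 4, were those of Mt1 and Mt2. It lies at chr3:94901128-94901187 in mm9, and bases 12 to 41 of its 60 are shown because they are rich in the cysteine triplets TGC and TGT, in capitals.
Pip5k1a probe: TGCTGCtccTGCtctcagggcTGCatcTGC
In the best of its 3 forward reading frames 5 of 19 triplets were TGC or TGT, a count reached by 1.05% of all tested probes. Its longest shared run with the Mt1 and Mt2 probes was 6 and 5 bases. Only these probes of 60 bases were compared, not the rest of the Mt1 and Mt2 transcripts, so the runs cannot show whether it matches there. Whether it captures metallothionein transcripts was not tested.

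The promoters are given as a description, and no link between motifs and signal was tested. RefSeq windows of 250 bases before to 50 bases after an annotated start (build GRCm38.p6) were found for 7 of the 8 genes, and Zbtb16 had none. They were searched on both strands for the metal response element core (TGCACNC or TGCGCNC), for the full glucocorticoid response element (AGAACA and TGTTCT with any 3 bases between) and for 1 arm of it, TGTTCT, which overlaps the full element. The Mt1 window held 3 metal cores and the Mt2 window 4. Of 32851 windows of this length 25.7% held at least 1 core, 1.97% at least 3 and 0.517% at least 4. Neither metallothionein window held the single arm, which 19.0% of windows did. The Mt2 promoter is given from base -250 to -1 at chr8:94172368-94172617, plus strand, and a stretch of 30 bases around the Mt1 start at chr8:94179088-94179117, plus strand, with metal cores in capitals. The last capitals of the Mt2 stretch are a core on the minus strand, and the fourth Mt2 core lies after the start.
Mt2 promoter: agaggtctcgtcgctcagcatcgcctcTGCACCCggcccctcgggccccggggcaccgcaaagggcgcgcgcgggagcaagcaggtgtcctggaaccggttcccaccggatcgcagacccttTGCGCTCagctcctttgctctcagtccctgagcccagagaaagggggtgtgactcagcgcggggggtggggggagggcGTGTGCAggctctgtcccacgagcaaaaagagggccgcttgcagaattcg
Mt1 start: ctcTGCACTCcgcccgaaaagTGCGCTCgg
The full glucocorticoid element occurred in 3 of the 32851 windows (0.00913%), and 1 of these was the fifth of 6 annotated Sgk1 starts by position, from base -189 to -175. It is shown in capitals in 30 bases at chr10:21993694-21993723, plus strand.
Sgk1 upstream: tgcggaaAGAACAGAATGTTCTcggagatt
The windows of Fkbp5, Hsd11b1 and Dusp1 held neither the element nor its arm, and 1 of 3 Tsc22d3 windows held the arm. These matches are letters in a short window and say nothing of elements elsewhere in the genes.

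**Figure D4:**
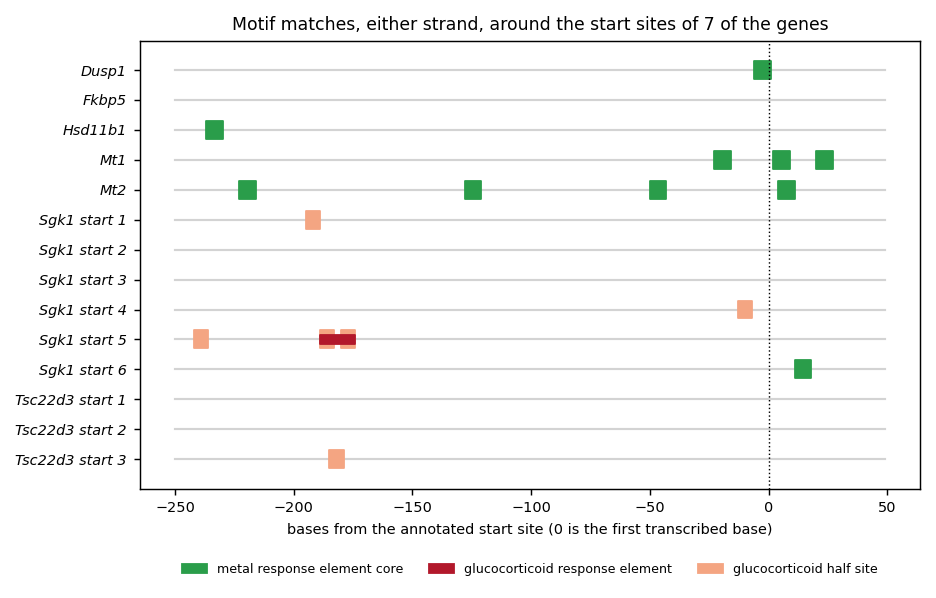
Positions of motif matches on either strand (coloured bars) relative to the annotated start (x axis, bases, with 0 the first transcribed base) in the RefSeq windows of 7 of the genes, 1 line per annotated start. Mt1 has 3 and Mt2 4 metal response element cores, and the full glucocorticoid response element appears on 1 line, an Sgk1 start.

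The other genes of the pathway were read from lists chosen with earlier results of these data known. Among the receptor and its co-factors, 3 of 11 measured genes were called in HFoleic against reference, all higher (4.05% of all probes were called higher). Nr3c1, the glucocorticoid receptor itself, rose from 11.96 ± 0.18 (SD) to 12.32 ± 0.098 (log2 fold change 0.36 ± 0.071 SE, adjusted p = 0.0035 by limma), with 6 of 8 HFoleic mice above all reference mice, and its second tested probe gave 0.20 (adjusted p = 0.180). Fkbp4, the co-chaperone that favours transport of the receptor to the nucleus and a relative of Fkbp5, rose by 0.55 ± 0.067 (SE, adjusted p = 0.000171), and all 8 HFoleic mice lay above all reference mice. Stip1, which links Hsp70 to Hsp90, rose by 0.33 ± 0.098 (adjusted p = 0.0382), and its second tested probe gave 0.17 (adjusted p = 0.629). The Stip1 call was lost with the clock score as a covariate (0.27, adjusted p = 0.197) and in 10 of 24 fits that left out 1 mouse, reference replicates 1, 2, 4, 5, 7 and 9 and HFoleic replicates 2, 4, 5 and 7. The list had a median difference of 0.20, against -0.0062 over all genes. In HFepa the same genes had 0.23, 0.29 and 0.37 (adjusted p = 0.138, 0.0597 and 0.0994), and none of the list was called.

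Among genes of steroid supply and clearance, 1 of 6 measured was called in HFoleic, beside 7.23% of all probes. Serpina6, the corticosteroid-binding globulin that the liver secretes to carry corticosterone in plasma, rose from 13.28 ± 0.44 (SD) to 14.31 ± 0.22 in HFoleic (log2 fold change 1.03 ± 0.19 SE, adjusted p = 0.00246 by limma). In HFepa it was 0.55 ± 0.20 above reference (adjusted p = 0.204). Transcripts of the receptor, at its brightest probe, and of the plasma carrier of corticosterone were thus higher in HFoleic, while that of Fkbp5 was lower.

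Of 21 other genes that glucocorticoids are known to induce, 7 were called in HFoleic and all 7 were lower, beside 3.19% of all probes called lower. The median of the list was -0.23, with 14 differences negative and 7 positive, the highest at 0.60 and none of the positive ones called. They comprised the gluconeogenic genes Pck1 (-0.74 ± 0.11 SE, adjusted p = 0.000602), G6pc (-0.52 ± 0.12) and their coactivator Ppargc1a (-0.54 ± 0.15), the tyrosine-degrading enzyme Tat (-0.63 ± 0.14), the lipase inhibitor Angptl4 (-0.44 ± 0.13), the growth factor carrier Igfbp1 (-1.34 ± 0.26) and the cell cycle inhibitor Cdkn1a (-1.70 ± 0.42). Insulin, fasting signals and fatty acids also regulate most of these genes. Cdkn1a had the widest spread, with 9.34 ± 1.09 (SD) in reference and 7.64 ± 0.74 in HFoleic. In HFepa none was called. There Angptl4 was at 0.13 (adjusted p = 0.757), like Fkbp5 close to reference. G6pc and Ppargc1a were as far below reference as in HFoleic, at -0.53 and -0.62 (adjusted p = 0.0543 and 0.0700). Pck1, Tat, Igfbp1 and Cdkn1a lay between reference and their HFoleic values, at -0.29, -0.45, -0.73 and -0.93 (adjusted p = 0.246, 0.159, 0.220 and 0.346). No gene of the list was called between HFepa and HFoleic, where Angptl4 was higher in HFepa by 0.57 and Pck1 by 0.44 (adjusted p = 0.184 and 0.201). With the clock score as a covariate, 5 of the 7 were no longer called in HFoleic, with adjusted p values from 0.0624 to 0.328. Of these, Tat and Ppargc1a kept about their size, at -0.56 and -0.60, whereas G6pc, Angptl4 and Cdkn1a were smaller, at -0.32, -0.25 and -0.94. The Angptl4 call was also lost without any 1 of reference replicates 1, 3, 6, 7 and 9 and HFoleic replicates 1, 2, 4, 6 and 8, and that of Ppargc1a without any 1 of reference replicates 1 and 7 and HFoleic replicates 2, 3, 4 and 8.

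**Figure D5:**
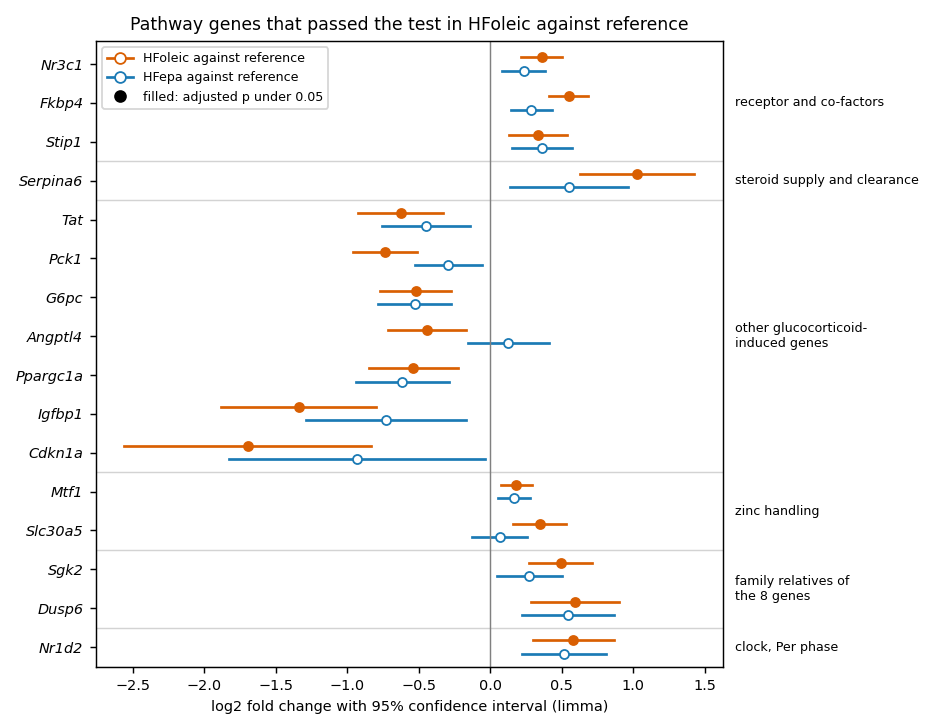
Log2 fold change (x axis) with 95% confidence intervals from limma for the 16 pathway genes called in HFoleic against reference, grouped by list, in HFoleic and in HFepa against reference. Filled points mark an adjusted p under 0.05. All 7 called genes of the glucocorticoid-induced list lie left of 0 in HFoleic, and no HFepa point is filled.

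Among 12 measured genes of zinc handling, 2 were called in HFoleic and both were higher, beside 4.05% of all probes called higher. Mtf1, the zinc sensor that drives metallothionein transcription, had a small rise of 0.18 ± 0.053 (SE, adjusted p = 0.0338 by limma) at its brightest probe, and of its 4 tested probes 2 had that sign. Its call was lost without any 1 of reference replicates 1, 3 and 4 and HFoleic replicates 3, 4, 7 and 8. Slc30a5, a zinc exporter into the Golgi, rose by 0.35 ± 0.090 (adjusted p = 0.0187), its second tested probe gave 0.16 (adjusted p = 0.229), and with the clock score as a covariate it gave 0.37 (adjusted p = 0.0520). The other 10 were not called, and Mt4 had no tested probe. Among relatives of the 8 genes, Sgk2, a kinase closely related to Sgk1, rose by 0.49 ± 0.11 (adjusted p = 0.00605), and Dusp6, an Erk phosphatase, by 0.59 ± 0.15 (adjusted p = 0.0159). With Fkbp4 these were 3 of 13 measured relatives, beside the same 4.05% of all probes. With the clock score as a covariate Dusp6 gave 0.52 (adjusted p = 0.102). Sgk1 and Sgk2 thus had opposite signs in HFoleic.

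None of 12 genes of interleukin-6 signalling and the acute phase was called in HFoleic, beside 7.23% of all tested probes. At that share, counts of calls in the short lists given here decide little. The smallest p values were those of the fibrinogen chain Fgg (0.16, adjusted p = 0.159 by limma) and of the cytokine inhibitor Socs3 (0.47, adjusted p = 0.187). Of 9 immediate early genes, the group that Dusp1 often accompanies, none was called either, with Jun at -0.49 (adjusted p = 0.119) and Junb at -0.23 (adjusted p = 0.309). Of 6 Per-phase clock genes, Nr1d2 was called (0.58 ± 0.14 SE, adjusted p = 0.0100, and 0.33 with adjusted p = 0.122 beside the clock score, of which it is a part) and all 6 fitted differences were positive, and of 3 Bmal1-phase genes none was called, with Arntl at -0.70 (adjusted p = 0.0663) and Nfil3 at -0.22 (adjusted p = 0.494).

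The genes most similar to each of the others over the 24 arrays, by Pearson's r, are given as a description. For Fkbp5 they were Uhrf1bp1l, Ptpn9 and Fam46a (r = 0.81, 0.81 and 0.77), and within groups r was 0.64, 0.69 and 0.63. For Tsc22d3 the closest was Klf15, a fasting- and glucocorticoid-induced factor, with r = 0.83 and 0.87 within groups. Dusp1 went with Xxylt1 and Zfp36l1 (r = 0.73 and 0.70), and Zbtb16 with Arl4d (r = 0.72). For Sgk1 the closest were Dkk3, Gpx3 and Timp2 (r = 0.90 for each), and these fell to 0.71, 0.74 and 0.70 without reference replicate 5. For Hsd11b1 they were Bbox1, Cat and Nr1i3 (r = 0.95, 0.94 and 0.94), which fell to 0.78, 0.81 and 0.63 without it. Sgk1 and Hsd11b1 had opposite patterns (r = -0.83, and -0.43 without reference replicate 5). Fkbp5 and Tsc22d3, both used as readouts of the receptor, did not follow each other (r = -0.10), and Fkbp5 had r = 0.092 with Mt1.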

How the data were processed

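Liver RNA of 24 mice was hybridised to Agilent mouse 8x60K arrays in 1 colour, with groups and replicate numbers as the labels give them. The deposited scanner files, from Agilent Feature Extraction (version 10.10.1.1 per the submitters' processing notes), hold median signal intensities without normalization and marks of 0 or 1 that single out outliers and signals well above background. A table of log2 values, filtered and quantile normalized by the authors, was used as an alternative. Here log2 median signals were averaged per probe without outlier spots, probes were kept (30003 of 56605) if in any group 75% or more of its arrays had them well above background, and arrays were quantile normalized. Group means were fitted with limma (version 3.58.1, R 4.3.3) over all 24 arrays, two-sided, with Benjamini-Hochberg adjustment over all tested probes within each comparison. The fit was tested on simulated data for HFoleic against reference. Tables and figures were made with Python 3.11.15, pandas 2.3.3, numpy 2.4.6 and matplotlib 3.10.9.

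The 8 genes and all lists were chosen with earlier results of these data known. Genes named from a list are those called in a comparison, or else the 2 with the smallest p in HFoleic against reference. The number of arrays limits the precision, and p-values weigh the differences between groups against the spread between these mice. Promoters came from a RefSeq table of GRCm38.p6, and probe coordinates (mm9) from the scanner files. Alternatives were the processed signal, normexp, 75th percentile scaling, no filter, outlier spots kept, the authors' table, blocks for slide, slide row and replicate number, a clock score, fits of 2 groups, the methods' t-test and leaving out each mouse.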

Additional observations from a re-analysis of the deposited data

Results flagged for a closer look

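The log2 signal of Sgk1 in reference replicate 5 was 12.53, and the gap to the next mouse, at 11.47, was 0.51 of the range of the group, over the critical 0.493 of Dixon's test for 9 samples. The log2 signal of Hsd11b1 in the same mouse was 13.85, with the next mouse at 15.21 and a gap of 0.83 of the range. These were 2 of 36 groups of values tested, of which chance would mark about 5%. In this mouse the bile duct markers Krt19, Spp1 and Sox9, but not Krt7, were higher than in any of the other 23. Their part in both values was not tested.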

How the results depend on the processing

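The number of the 8 genes called in HFoleic against reference (1) was 0 without the filter on dim probes, and 2 with the clock score (Mt1 and Mt2), with 2 groups in the fit and by the methods' t-test (Fkbp5 and Mt1 in both). Leaving out 1 mouse gave 0 to 3. With the replicate block it was 1, but Mt1 (adjusted p = 0.0315) in place of Fkbp5 (0.0579), with 1747 probes called in HFoleic and 104 in HFepa. Replicate numbers did not pair the mice, since the correlations of same-numbered mice ran from -0.30 to 0.35. Probes called in HFoleic against reference (2170) were 802 with the clock score and 1602 to 3097 with 1 mouse left out. Probes called in HFepa against reference (118) were 0 without the filter, 4 with the clock score, 13 with 2 groups in the fit, 0 by the methods' t-test and 0 to 499 with 1 mouse left out. In HFepa against HFoleic they were 0 under all 12 processing alternatives and 0 to 15 with 1 mouse left out. None of the 8 genes was called in either HFepa comparison under any alternative run.

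Signs changed only for differences that were not called. These were Fkbp5 in HFepa against reference with the slide block (-0.010), and in HFepa against HFoleic Sgk1 with the replicate block (-0.047) and the clock score (-0.026) and Mt2 with the replicate block (-0.086). Socs3 in HFepa against reference gave -0.069 with the replicate block, and Nfil3 gave 0.16 in HFoleic and 0.10 in HFepa with the clock score. With 1 mouse left out Fkbp5 in HFepa against reference ran from -0.055 to 0.094, Socs3 from -0.040 to 0.11 and Dusp1 in HFoleic against reference from -0.047 to 0.16. In HFepa against HFoleic, Sgk1 ran from -0.055 to 0.050, Zbtb16 from -0.0077 to 0.21, Mt1 from -0.26 to 0.42 and Mt2 from -0.46 to 0.31. The cause was not tested. The second Mt1 and Zbtb16 probes were dim, and the spread of Mt1 and Mt2 within groups limited the comparison of the lineages.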
